A study of Mus musculus with 12 samples.

Results

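The response of plasmacytoid dendritic cells to a CpG-C oligodeoxynucleotide was read from 6 of the 12 RNA-seq libraries of the series, 3 from cells given CpG-C and 3 from control cells. All 4 groups of the series held 3 libraries, and the other 6 came from cells given CpG-A or CpG-B. The cells of every group came from bone marrow of BALB/c mice aged 56 to 63 days, with no engineered allele named in the labels, and were in culture for 24 h. The treated groups differed only in the class of oligodeoxynucleotide, at 0.5 µM, and the control received none. Of the 21573 genes in the deposited table, the 11641 with at least 1 FPKM (fragments per kilobase of transcript, scaled to the depth of the library) in at least 3 of the 12 libraries were compared. The labels neither describe the gate used to sort the cells nor say whether replicates came from separate mice. The p-values therefore measure the spread between samples, which may be technical.

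Plasmacytoid dendritic cells detect unmethylated CpG DNA in endosomes through TLR9 and its adaptor MYD88. From there IRF7 drives type I interferon genes, and NF-kB drives cytokine and co-stimulatory genes. Secreted interferon then acts through its receptor on the same and neighbouring cells and switches on interferon-stimulated genes by way of response elements in their promoters. CpG-A joins a phosphodiester palindrome to modified poly-G tails and is known for strong interferon-alpha induction. CpG-B is a linear, fully phosphorothioate strand known for maturation and B cell activation, and CpG-C is a fully phosphorothioate strand with a palindrome whose known effects combine features of both.

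CpG-C raised 156 genes and lowered 61 (adjusted p below 0.05 in limma, Benjamini-Hochberg over the 11641 genes). Higher calls made up 1.34% of the genes tested, lower calls 0.524%, and all calls 1.86%. The called rises had a median log2 difference of 3.71 and the called falls one of -3.17, where differences are CpG-C minus control on log2(FPKM + 1). For all 217 called genes the 3 CpG-C and 3 control values did not overlap, which was also true of 17.9% of all genes tested. The median difference of all genes was -0.22, and scaling the libraries by median of ratios or by upper quartile moved it by 0.142 or 0.155. With upper quartile scaling 189 genes were called higher and 40 lower, so the excess of rises was larger there. The total of 217 calls became 119 without CpG-C replicate 1, 106 without CpG-C replicate 3 and 125 without control replicate 2. In all 6 fits that left out a library of these groups, 90 genes were called, 81 of them higher and 9 lower.

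**Figure D1:**
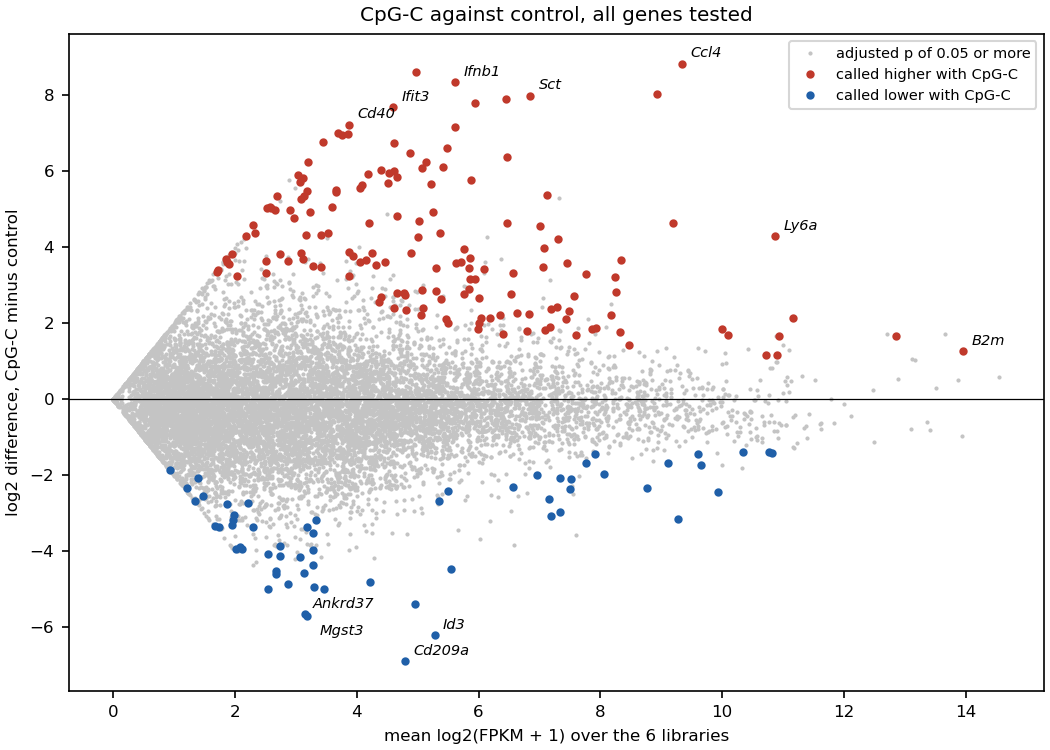
Each point is a gene, with its mean log2(FPKM + 1) over the 6 CpG-C and control libraries on the x axis and the log2 difference, CpG-C minus control, on the y axis. The 156 genes called higher reach 8.83 and the 61 called lower reach -6.88, and grey points had an adjusted p of 0.05 or more.

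The cells carried plasmacytoid dendritic cell markers in both groups. Siglech, a lectin receptor of these cells, had 1040.75, 2402.46 and 1922.4 FPKM with CpG-C, against 2144.04, 3240.76 and 2776.74 FPKM in control cells. Of 14 monocyte and macrophage markers in the table, 10 were under 0.5 FPKM in all 6 libraries. Csf1r had 0 FPKM in the 3 CpG-C libraries and at most 0.26 FPKM in control, and Lyz2 was listed at 0 in all 6. The whole list summed to 290.3 to 427 FPKM with CpG-C and 719 to 1121 FPKM in control, and none of the 4 members tested was called. Conventional dendritic cell markers summed to 351 to 400.3 FPKM with CpG-C and 571 to 870.2 FPKM in control. Cd209a alone made up 0 to 11.4 FPKM and 181.91 to 468.45 FPKM of these sums. Natural killer cell markers overlapped, at 393 to 796 FPKM with CpG-C and 718 to 1247 FPKM in control. Klrd1 alone made up 20.78 to 108.64 FPKM and 326.69 to 723.92 FPKM of them. Of the 13 natural killer cell markers tested, 7 had a difference above 0. The sums for T cell, progenitor and B cell markers were not lower with CpG-C. T cell markers summed to 275 to 375 FPKM with CpG-C and 168 to 270 FPKM in control. Progenitor markers summed to 7586 to 9693 FPKM with CpG-C and 785 to 2567 FPKM in control. Ly6a alone made up 7226.32 to 9264.9 FPKM and 82.93 to 1949.3 FPKM of these sums. Of the 6 progenitor markers tested, 3 had a difference above 0, with a median of 0.05. B cell and plasma cell markers overlapped, at 386 to 824 FPKM with CpG-C and 515 to 758 FPKM in control. In such bulk samples, fewer cells of a type, less RNA per cell and a change in single marker genes cannot be told apart. From the FPKM values the depth was estimated at 23800000 to 25000000 fragments per CpG-C library and 23000000 to 23600000 per control library. CpG-C replicate 1 had the fewest genes at 1 FPKM or more of its group, 7971 against 9670 and 9653, and control replicate 1 of its own, 8516 against 9656 and 10622.

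The letters of an interferon-stimulated response element were looked for in promoters. The search covered the 300 bases from 250 before to 50 after the start (RefSeq, GRCm38.p6) for GAAA, any 2 bases and GAAA on both strands, and used genes with a single promoter there. The letters were present for 24 of 87 genes called higher (27.6%), 0 of 39 genes called lower, 3.6% of the genes tested and 3.58% of all 22862 such promoters. Sepp1, called lower, has several promoters and so was not among the 39, and the letters lie at -164 from 1 of its starts. An NF-kB pattern, GGGA, any base and TTTCC, was present for 1 of the 87 genes (1.15%) and 0.34% of the genes tested. TTCNNNGAA, a STAT pattern whose matches may overlap the first, was present for 12.6% of the genes called higher and 7.33% of the genes tested. These are matches of letters and were not tested as binding sites. The promoters of 4 genes that CpG-C raised are shown because each holds such an element, with the matched letters in capitals. They are Ifit3 at chr19:34583279-34583578 on the plus strand, Ifit1 at chr19:34640639-34640938 on the plus strand, Isg15 at chr4:156200769-156201068 on the minus strand and Cxcl10 at chr5:92348840-92349139 on the minus strand.
Ifit3: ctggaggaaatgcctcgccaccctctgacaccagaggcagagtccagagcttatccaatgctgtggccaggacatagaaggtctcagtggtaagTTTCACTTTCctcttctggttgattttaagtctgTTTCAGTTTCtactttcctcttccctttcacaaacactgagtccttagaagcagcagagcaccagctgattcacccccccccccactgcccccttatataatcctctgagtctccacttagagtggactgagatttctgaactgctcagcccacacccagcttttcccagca
Ifit1: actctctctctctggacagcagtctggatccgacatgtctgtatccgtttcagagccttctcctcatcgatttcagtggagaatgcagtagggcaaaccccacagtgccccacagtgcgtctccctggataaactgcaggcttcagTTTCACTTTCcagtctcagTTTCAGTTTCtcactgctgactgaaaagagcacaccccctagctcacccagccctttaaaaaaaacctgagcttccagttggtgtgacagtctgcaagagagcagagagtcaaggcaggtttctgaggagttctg
Isg15: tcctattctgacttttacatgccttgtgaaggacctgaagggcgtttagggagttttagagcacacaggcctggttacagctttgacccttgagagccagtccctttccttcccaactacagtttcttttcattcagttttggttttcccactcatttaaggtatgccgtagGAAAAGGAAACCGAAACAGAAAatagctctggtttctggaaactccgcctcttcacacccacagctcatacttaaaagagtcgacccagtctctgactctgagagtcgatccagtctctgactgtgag
Cxcl10: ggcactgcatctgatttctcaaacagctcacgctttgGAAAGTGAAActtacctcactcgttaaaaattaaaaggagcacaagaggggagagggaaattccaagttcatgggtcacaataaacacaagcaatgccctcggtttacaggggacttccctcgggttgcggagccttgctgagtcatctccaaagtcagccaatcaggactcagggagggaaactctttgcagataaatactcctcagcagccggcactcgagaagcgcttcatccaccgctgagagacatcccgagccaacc
Ifit3 and Ifit1 share the same pair of matched letters, while in Isg15 the matches run into each other and in Cxcl10 a single match lies farther from the start.

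Among the interferon genes themselves, CpG-C raised the gene of interferon beta and Ifna9, and most alpha genes were low or uneven between libraries. Ifnb1 had 3405.2, 189.04 and 1073.65 FPKM with CpG-C, against 3.23, 1.54 and 0.87 FPKM in control cells. Every CpG-C library stood far above every control library, but the CpG-C values themselves spread widely. The log2 difference was 8.35 (SE 1.78, adjusted p = 0.0242), and the call was lost without CpG-C replicate 1, CpG-C replicate 3 or any of the control libraries (adjusted p up to 0.121). Ifna9 had 44.14, 45.28 and 18.77 FPKM with CpG-C, against 0, 0.09 and 0 FPKM in control. All CpG-C libraries were above control, with a log2 difference of 5.07 (SE 1.01, adjusted p = 0.0158). That call was lost without CpG-C replicate 1, CpG-C replicate 2 or control replicate 2 (adjusted p up to 0.0715).

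Other alpha genes did not pass the test. Ifna2 had 28.61, 35.63 and 148.55 FPKM with CpG-C, while every control library listed it at 0, with an adjusted p of 0.108. Ifna4 had 1.65, 0 and 0 FPKM with CpG-C, against 0, 0.08 and 0 FPKM in control. Ifna6 was high in CpG-C replicate 1 alone, at 56.11, 0.11 and 0 FPKM, and was listed at 0 in control. Ifnl2 and Ifnl3, of the type III interferons, were each at 20.74 FPKM or more in a single CpG-C library and at 0 in the other CpG-C libraries. Of the 12 interferon genes tested, 2 were called higher, against 1.34% of all genes, and none lower. Their median log2 difference was 1.41 against -0.22 for all genes. Members such as Ifna2 and Ifna9, at or near 0 in every control library, could enter the test through CpG-treated libraries alone. That favours higher calls and a median above 0, so no conclusion is drawn from this count or median. Leaving out any library of these groups left at most 1 call, and none remained without CpG-C replicate 1 or control replicate 2. Alpha genes are close copies on chromosome 4 whose reads may have been shared between them, so their separate levels are uncertain.

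Interferon-stimulated genes held more of the rises than any other list. Of 56 genes on that list, all of which could be tested, 35 were called higher and none lower, against 1.34% higher among all genes. Their median log2 difference was 2.83, and the groups did not overlap for 47 of them with CpG-C higher, against 6.64% of all genes. Without each library in turn, 26 to 32 were called higher. This list, like the others, was chosen with earlier results of these data known. Ifit3, an antiviral protein that works with IFIT1 against foreign RNA, had 484.5, 214.42 and 401.63 FPKM with CpG-C, against 0.09, 0.6 and 1.74 FPKM in control. The 2 groups were far apart, with a log2 difference of 7.69 (SE 0.473), and this gene had the smallest adjusted p of the comparison, 8.85e-07. Its neighbour Ifit3b rose by 6.25 on the same scale, but near-identical copies may share reads.

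Ifit1 had 224.81, 106.82 and 203.43 FPKM with CpG-C, against 0.63, 0.32 and 7.03 FPKM in control, and rose by 6.05 (SE 0.617, adjusted p = 6.08e-05). Isg15, a ubiquitin-like modifier, had 171.22, 55.14 and 154.6 FPKM with CpG-C, against 0.21, 0.26 and 8.36 FPKM in control, a log2 difference of 5.56 (SE 0.79, adjusted p = 0.00108). Isg20, an RNA exonuclease, was even across the CpG-C libraries, and control replicate 3 was the highest of the control libraries for all 3 genes named here. Isg20 had 645.37, 598.58 and 525.43 FPKM with CpG-C, against 0.35, 1.56 and 18.74 FPKM in control, a log2 difference of 7.17 (SE 0.691, adjusted p = 3.99e-05). Ifit2, of the same family as Ifit1, rose by 6.11 (SE 0.502, adjusted p = 1.21e-05).

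Irf7, the interferon regulatory factor that sustains alpha interferon transcription, was already expressed without CpG. It had 817.08, 841.47 and 1143.1 FPKM with CpG-C, against 91.71, 35.37 and 282.79 FPKM in control. The groups did not overlap, and the log2 difference of 3.23 (SE 0.615, adjusted p = 0.0117) lost its call without CpG-C replicate 3 (adjusted p = 0.0662). Irf7 was the only called gene of 23 interferon receptor, JAK-STAT and IRF genes, whose median was -0.13. Stat2 differed by 1.83 (adjusted p = 0.0555) and Irf9 by -0.01 (adjusted p = 1), both chosen here after their values were seen. Usp18, which trims ISG15 from proteins and dampens the interferon receptor, had 475.16, 570.17 and 917.57 FPKM with CpG-C, against 13.35, 11.62 and 103.34 FPKM in control, and rose by 4.56 (SE 0.616, adjusted p = 0.000718). Bst2, the surface protein tetherin, did not pass, with 527.97, 345.29 and 671.17 FPKM with CpG-C and 532.24, 170.02 and 563.36 FPKM in control.

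**Figure D2:**
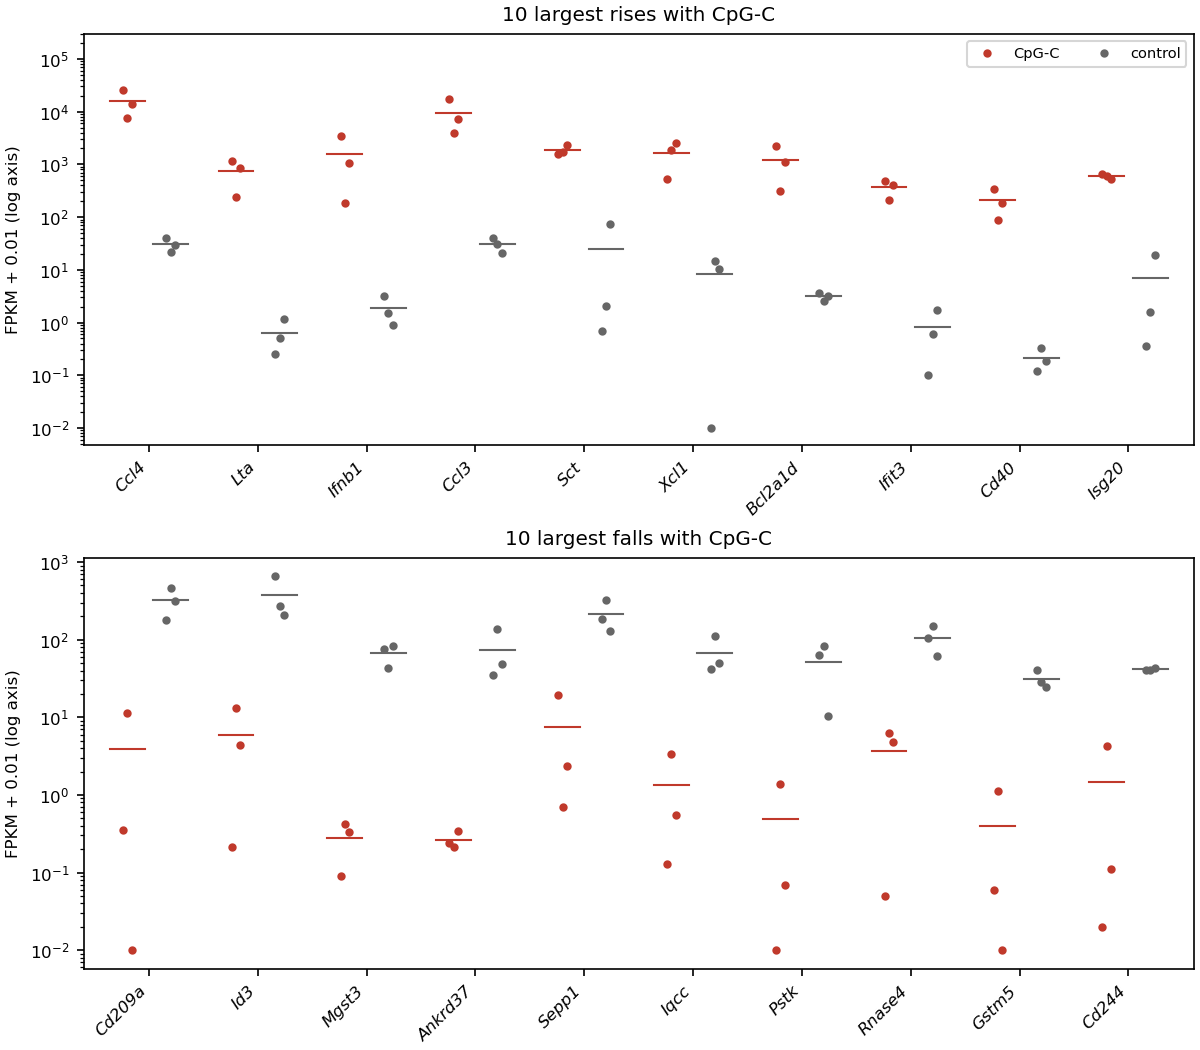
Dots are the 3 libraries of each group on a log axis of FPKM + 0.01, with CpG-C left of control for each gene, and bars are group means, for the 10 largest called rises and the 10 largest called falls. For each gene shown the groups do not overlap, and values drawn at 0.01 were listed at 0.

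Chemokine genes were among the largest differences of the comparison. Ccl4, which attracts T cells and natural killer cells, had 25406.06, 7483.01 and 13972.49 FPKM with CpG-C, against 39.76, 21.65 and 29.34 FPKM in control. Its log2 difference of 8.83 (SE 0.636, adjusted p = 3.94e-06) was larger than that of any other gene called. Ccl3, another inflammatory chemokine, had 17333, 3938.46 and 7318.19 FPKM with CpG-C, against 40.87, 30.22 and 20.43 FPKM in control, a log2 difference of 8.03 (SE 0.793, adjusted p = 5.08e-05). For both genes CpG-C replicate 1 was the highest and replicate 2 the lowest, and the lowest CpG-C value was still far above control.

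Xcl1, which attracts cross-presenting dendritic cells, had 517.28, 1845.53 and 2595.21 FPKM with CpG-C, against 0, 14.94 and 10.55 FPKM in control, a log2 difference of 7.90 (SE 1.41, adjusted p = 0.00719). Here CpG-C replicate 1 was the lowest of its group. Cxcl10, an interferon-induced ligand of CXCR3, had 554.18, 49.33 and 123.84 FPKM with CpG-C, against 0.13, 0.12 and 0.42 FPKM in control, a log2 difference of 6.96 (SE 0.67, adjusted p = 3.99e-05). Ccl5 did not pass the test, with 6241.48, 160.16 and 1019.88 FPKM with CpG-C and 2.47, 19.32 and 236.03 FPKM in control, so that control replicate 3 lay above CpG-C replicate 2 (adjusted p = 0.0555). Of 9 chemokine genes tested, 4 were called higher, against 1.34% of all genes, and none lower, with a median of 5.30. No chemokine receptor or homing gene was called among 14, and their median was -1.07.

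The cytokine genes raised by CpG-C were those of lymphotoxin alpha, TNF, 2 interleukin-12 family subunits and osteopontin. Lta had 1172.6, 235.93 and 847.61 FPKM with CpG-C, against 0.24, 0.49 and 1.17 FPKM in control, a log2 difference of 8.60 (SE 0.962, adjusted p = 0.00013). Tnf had 188.5, 300.63 and 499.37 FPKM with CpG-C, against 26.81, 0.21 and 0.98 FPKM in control, a log2 difference of 6.24 (SE 1.01, adjusted p = 0.00325). Control replicate 1 was the highest control library for Tnf and still below all 3 CpG-C libraries. Il12b, the p40 subunit shared by interleukins 12 and 23, had 135.03, 69.42 and 151.71 FPKM with CpG-C, against 0, 0.12 and 0.03 FPKM in control, a log2 difference of 6.76 (SE 1.14, adjusted p = 0.00458).

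Il12a, the p35 subunit that pairs with p40 in interleukin 12, was not called and overlapped between groups. It had 44.22, 4.39 and 2.45 FPKM with CpG-C, against 101.24, 22.86 and 40.08 FPKM in control, a log2 difference of -2.30 (SE 1, adjusted p = 0.354). Ebi3, the shared subunit of interleukins 27 and 35, had 580.77, 19.29 and 366.59 FPKM with CpG-C, against 0.29, 0.78 and 13.01 FPKM in control. Its log2 difference of 5.68 (SE 1.22, adjusted p = 0.0251) lost its call without CpG-C replicate 1, CpG-C replicate 3, control replicate 1 or control replicate 2 (adjusted p up to 0.126). Spp1, which encodes osteopontin, had 149.9, 59.87 and 23.19 FPKM with CpG-C, against 0.03, 0.19 and 1 FPKM in control, a log2 difference of 5.49 (SE 0.92, adjusted p = 0.00439).

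Il6 was uneven between the CpG-C libraries and was not called. It had 198.55, 0.32 and 11.17 FPKM with CpG-C, against 0, 0.2 and 0.38 FPKM in control, and CpG-C replicate 2 lay within the control range (adjusted p = 0.189). Il10 was listed at 0 in all 6 libraries, and Il1rn, the interleukin-1 receptor antagonist, had 6.03, 0.19 and 0.24 FPKM with CpG-C and 0.02, 0.29 and 0.08 FPKM in control (adjusted p = 0.69). Of 18 inflammatory cytokine genes tested, 5 were called higher, against 1.34% of all genes, and none lower, with a median of 2.32. Without each library in turn, 4 to 7 were called higher.

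**Figure D3:**
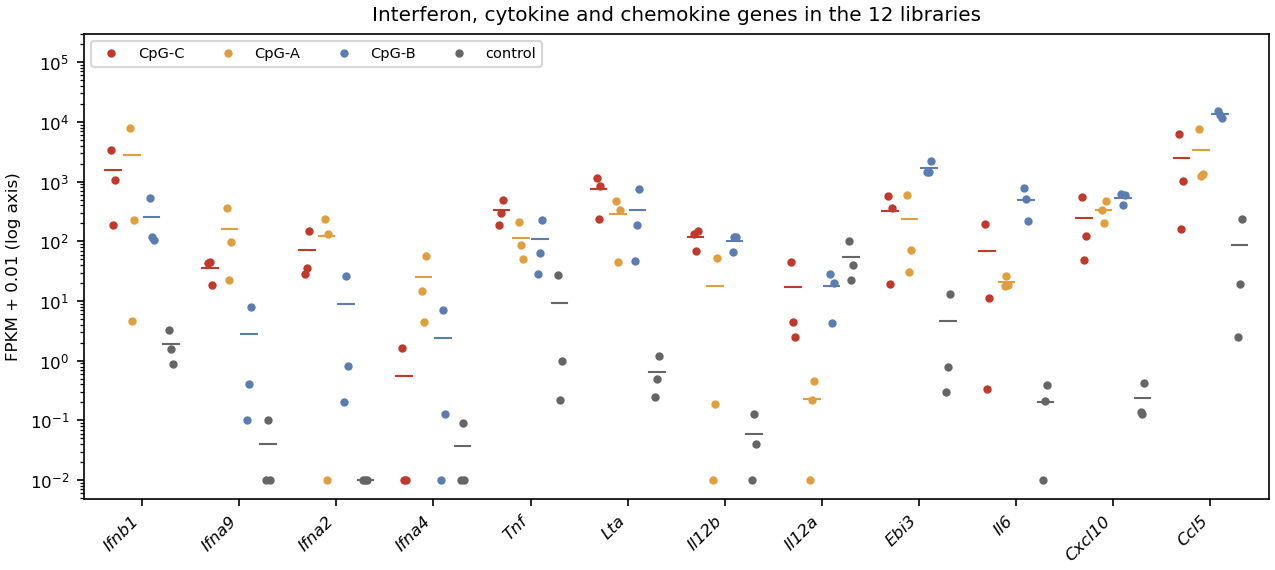
Dots are the 3 libraries of each group in the order CpG-C, CpG-A, CpG-B and control for each gene, on a log axis of FPKM + 0.01, and bars are group means. Ifnb1, Ifna9, Tnf, Lta, Il12b, Ebi3 and Cxcl10 were called higher with CpG-C than in control, whereas Ifna2, Ifna4, Il12a, Il6 and Ccl5 were not.

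Maturation genes changed in part. Cd40, the co-stimulatory receptor for CD40 ligand on T cells, had 348.59, 88.35 and 186.8 FPKM with CpG-C, against 0.11, 0.32 and 0.18 FPKM in control. The groups were far apart, and the log2 difference of 7.23 (SE 0.559, adjusted p = 7.04e-06) was called in all fits that left out a library. Cd69, an early activation antigen, had 485.33, 338.59 and 528.08 FPKM with CpG-C, against 56.6, 1.4 and 40.16 FPKM in control, a log2 difference of 4.64 (SE 0.875, adjusted p = 0.0111). Cd86, a ligand of CD28, had 51.23, 41.3 and 80.4 FPKM with CpG-C, against 0.05, 5.86 and 8.84 FPKM in control, a log2 difference of 3.77 (SE 0.737, adjusted p = 0.0138). Both calls were lost without CpG-C replicate 1 or CpG-C replicate 3 (adjusted p up to 0.0567 for Cd69 and 0.0805 for Cd86).

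The checkpoint ligand gene Cd274 had 21.1, 8.81 and 19.21 FPKM with CpG-C, against 4.99, 3.31 and 1.51 FPKM in control, and the homing receptor gene Ccr7 63.93, 23.7 and 90.02 FPKM with CpG-C, against 18.47, 0.46 and 10.49 FPKM in control. Neither pair of groups overlapped, and neither gene passed the test (adjusted p = 0.147 and 0.229). Of 21 maturation and co-stimulation genes tested, 3 were called higher, against 1.34% of all genes, and none lower, with a median of 1.08. Only 1 was called without CpG-C replicate 1 or CpG-C replicate 3.

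Genes of NF-kB signalling and its brakes made up a smaller group. Of 26 NF-kB subunits and targets, 5 were called higher, against 1.34% of all genes, and none lower. The groups did not overlap for 12 with CpG-C higher, against 6.64% of all genes. The called genes were Traf1 (3.50), Nfkbiz (2.75), Gadd45b (2.21), Map3k8 (2.15) and Icam1 (2.10), given with their log2 differences. Nfkbiz, a nuclear IkB protein needed for secondary response genes, had 77.13, 43.41 and 107.36 FPKM with CpG-C, against 10.97, 7.83 and 10.57 FPKM in control (SE 0.549, adjusted p = 0.0158). Only 1 of the 5 calls was left without CpG-C replicate 1, CpG-C replicate 3 or control replicate 2, and 3 were left without CpG-C replicate 2 or control replicate 3. Among 25 feedback inhibitors, Usp18 and Atf3 were called higher, against 1.34% of all genes, and the list median was 1.04. Atf3, a repressor of TLR-induced cytokine genes, had 83.11, 19.74 and 22.66 FPKM with CpG-C, against 0.1, 0.05 and 0 FPKM in control, and its call (5.04, SE 1.19, adjusted p = 0.0438) was lost whichever of the 6 libraries was left out (adjusted p up to 0.179).

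In the TLR9 pathway itself, Irf7 was the only called gene of 28, and the median was 0.12. Tlr9 had 4.28, 11.61 and 2.44 FPKM with CpG-C, against 5.87, 1.96 and 6.41 FPKM in control, and Myd88 had 29.94, 40.62 and 57.31 FPKM with CpG-C, against 20.7, 25.4 and 57.62 FPKM in control. Both overlapped between the groups, with 95% intervals of the log2 difference of -1.82 to 2.22 for Tlr9 and -0.75 to 1.53 for Myd88.

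Survival genes of the BCL2A1 family rose. Bcl2a1d, an anti-apoptotic protein of the BCL2 family, had 2229.29, 307.97 and 1128.19 FPKM with CpG-C, against 3.66, 2.57 and 3.18 FPKM in control, a log2 difference of 7.81 (SE 0.693, adjusted p = 2.29e-05). Bcl2a1b rose by 6.37 (adjusted p = 0.000573) and Bcl2a1a by 5.93 (adjusted p = 0.03). The last of these calls was lost without CpG-C replicate 1, CpG-C replicate 3, control replicate 2 or control replicate 3 (adjusted p up to 0.138). The 3 genes are close copies on chromosome 9, so reads may have been shared between them. Casp4, an inflammatory caspase that senses cytosolic lipopolysaccharide, had 250.56, 111.98 and 268.92 FPKM with CpG-C, against 0.07, 0.44 and 17.6 FPKM in control, and rose by 6.01 (SE 0.852, adjusted p = 0.00108). These 4, all higher, were the called genes among 34 of apoptosis and survival, against 1.34% higher among all genes. The list median was 0.37.

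Gzmb, which encodes granzyme B and is expressed by activated plasmacytoid dendritic cells as well as cytotoxic lymphocytes, had 395.06, 75.19 and 139.85 FPKM with CpG-C, against 0, 0.44 and 0.47 FPKM in control. The groups were far apart, but the call (6.98, SE 1.47, adjusted p = 0.022) was lost without CpG-C replicate 1, CpG-C replicate 3 or any control library (adjusted p up to 0.109). Of 13 natural killer cell markers, Ncr1 was called higher and Klrd1 lower, with a list median of 0.37. Ncr1 had 24.21, 5.12 and 12.35 FPKM with CpG-C, against 0, 0.06 and 0.06 FPKM in control (3.61, adjusted p = 0.0142), and Klrd1 had 79.96, 108.64 and 20.78 FPKM with CpG-C, against 388.97, 723.92 and 326.69 FPKM in control (-2.97, adjusted p = 0.0253). The Ncr1 and Klrd1 calls were both lost without CpG-C replicate 1 or 3, and the Klrd1 call also without control replicate 1 or 2 (adjusted p up to 0.12). The part of such cells in the Gzmb difference was not tested.

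Sct, the precursor of the peptide hormone secretin, was among the largest rises. It had 1540.12, 1723.92 and 2336.7 FPKM with CpG-C, against 0.69, 2.03 and 72.71 FPKM in control, a log2 difference of 7.99 (SE 0.963, adjusted p = 0.000248). The CpG-C libraries lay close together, and control replicate 3 was far above the other two control libraries. Ly6a, an interferon-inducible surface protein also used as a progenitor marker, had 8474.24, 7226.32 and 9264.9 FPKM with CpG-C, against 463.28, 82.93 and 1949.3 FPKM in control, a log2 difference of 4.29 (SE 0.753, adjusted p = 0.00639). Ly6a was the only progenitor marker called among the 6 tested. Its call held whichever library was left out. It was lost with no filter, with only the 6 libraries compared and without the 4 libraries numbered 1 (adjusted p up to 0.145).

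A few antigen presentation genes were called. Of 23 genes of MHC class I presentation, 3 were called higher, against 1.34% of all genes, with a median of 1.17. B2m, the light chain of class I molecules, had 29274.04, 21901.55 and 23568.96 FPKM with CpG-C, against 13513.44, 7907.22 and 10196.21 FPKM in control, a log2 difference of 1.26 (SE 0.233, adjusted p = 0.00903). Tap1, the peptide transporter, differed by 1.71 (adjusted p = 0.0351) and the heavy chain gene H2-D1 by 1.17 (adjusted p = 0.0369), which has close copies. No class I call was left without CpG-C replicate 1 or control replicate 2, and 1 was left without CpG-C replicate 3. In MHC class II presentation, Marchf1, the ligase that removes class II molecules from the surface, was the only call among 18. It had 0.27, 0.06 and 0 FPKM with CpG-C, against 17.63, 24.31 and 9.47 FPKM in control, and its fall (-3.95, SE 0.768, adjusted p = 0.0133) lost its call without CpG-C replicate 3 or control replicate 2 (adjusted p up to 0.0709). H2-Ab1 had 2196.08, 2081.32 and 2809.59 FPKM with CpG-C, against 765.6, 1662.89 and 1805.11 FPKM in control (0.83, adjusted p = 0.517), and Ciita differed by 0.64 (adjusted p = 0.861).

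**Figure D4:**
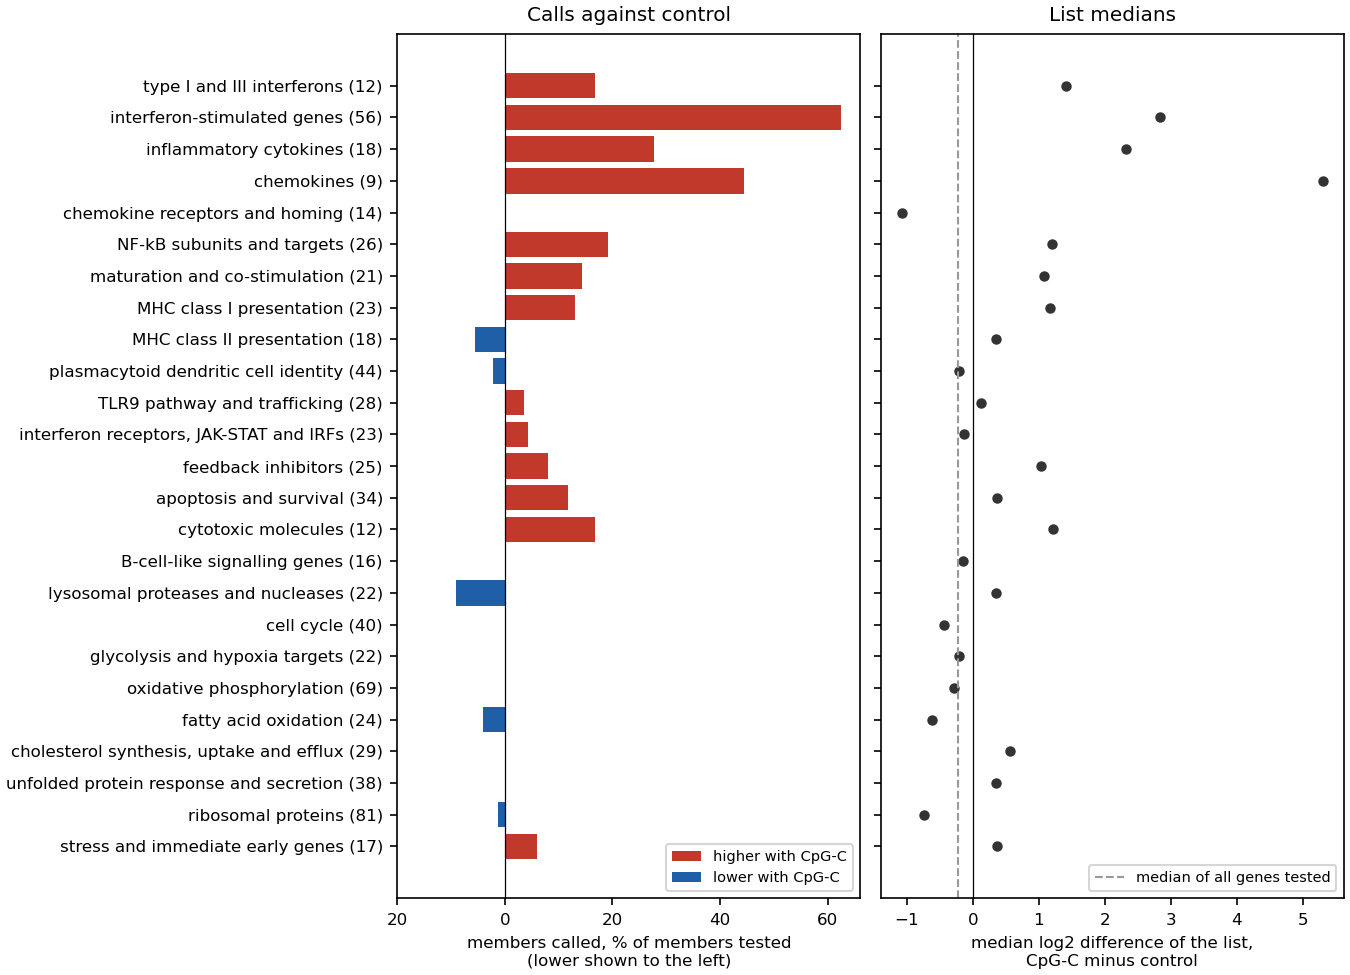
The left panel gives, for each gene list, the percentage of tested members called higher (right of 0) or lower (left of 0) with CpG-C, with the number tested in brackets. The right panel gives the list's median log2 difference, CpG-C minus control, beside the median of all genes, -0.22, as a dashed line. Interferon-stimulated genes had the largest share called, 35 of 56, and chemokines the largest median, 5.30.

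The largest falls included a lectin of dendritic cells and an inhibitor of E proteins. Cd209a, a relative of the lectin DC-SIGN, had 0.34, 11.4 and 0 FPKM with CpG-C, against 181.91, 468.45 and 315.75 FPKM in control, a log2 difference of -6.88 (SE 0.959, adjusted p = 0.000953). It was called in every fit that left out a library, and was the only call among 11 conventional dendritic cell markers. Id3, which blocks E proteins such as TCF4, had 0.2, 13.28 and 4.39 FPKM with CpG-C, against 655.3, 269.67 and 209.26 FPKM in control. Its log2 difference of -6.21 (SE 1.2, adjusted p = 0.0125) lost its call without CpG-C replicate 1 or control replicate 1 (adjusted p up to 0.0692).

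Other large falls included enzymes. Mgst3, a microsomal glutathione transferase, had 0.08, 0.41 and 0.32 FPKM with CpG-C, against 75.71, 43.11 and 84.12 FPKM in control, a log2 difference of -5.71 (SE 0.972, adjusted p = 0.00486). Pstk, a kinase needed to make selenocysteine, had 0, 1.39 and 0.06 FPKM with CpG-C, against 63.28, 82.8 and 10.42 FPKM in control, a log2 difference of -4.86 (SE 0.864, adjusted p = 0.00719). The groups did not overlap for either gene, and both calls held whichever library was left out. Sepp1, the plasma carrier selenoprotein P, had 19.18, 0.68 and 2.34 FPKM with CpG-C, against 186.1, 327.15 and 129.35 FPKM in control, and its call (-5.37, SE 1.11, adjusted p = 0.02) was lost without CpG-C replicate 2, CpG-C replicate 3, control replicate 1 or control replicate 2 (adjusted p up to 0.0948). Gstm5, a mu class glutathione transferase, had 0.05, 1.1 and 0 FPKM with CpG-C, against 40.16, 28.23 and 24.24 FPKM in control. Its call (-4.58, SE 1.1, adjusted p = 0.0477) was lost whichever library was left out (adjusted p up to 0.152).

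Ankrd37, an ankyrin repeat gene induced by hypoxia, had 0.23, 0.2 and 0.33 FPKM with CpG-C, against 35.23, 135.5 and 49.16 FPKM in control, a log2 difference of -5.65 (SE 0.988, adjusted p = 0.00621). None of 22 glycolysis and hypoxia target genes was called, with a median of -0.21. Iqcc had 0.12, 3.35 and 0.54 FPKM with CpG-C, against 41.88, 112.66 and 49.56 FPKM in control, a log2 difference of -5.00 (SE 0.852, adjusted p = 0.00486). Rnase4, a secreted ribonuclease, differed by -4.82 (adjusted p = 0.0466), a call lost whichever library was left out (adjusted p up to 0.182). Cd244, a SLAM family receptor, had 0.01, 4.21 and 0.1 FPKM with CpG-C, against an even 40.37, 41.2 and 43.26 FPKM in control. Its call (-4.57, SE 0.878, adjusted p = 0.0124) was lost without CpG-C replicate 1, CpG-C replicate 3 or control replicate 2 (adjusted p up to 0.0733).

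Among genes of plasmacytoid dendritic cell identity there was a single call. Of 44 tested, 1 was called lower and none higher, and the median of -0.20 was close to that of all genes. Groups did not overlap for 10 with CpG-C lower, against 11.2% of all genes. For 6 they did not overlap with CpG-C higher, against 6.64% of all genes. The called gene, Atp1b1, a sodium pump subunit, had 11.11, 197.93 and 52.18 FPKM with CpG-C, against 412.93, 656.6 and 283.42 FPKM in control (-3.08, SE 0.744, adjusted p = 0.0486). Its call was lost without CpG-C replicate 1, CpG-C replicate 3 or any control library (adjusted p up to 0.173). For Siglech, given above, the log2 difference was -0.67 with a 95% interval of -1.55 to 0.21. Tcf4, the lineage's master regulator, had 38.53, 92.1 and 74.51 FPKM with CpG-C, against 36.67, 121.43 and 127.01 FPKM in control, and replicate 1 was the lowest in both groups (-0.36, 95% interval -1.64 to 0.92).

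Housekeeping and metabolic lists held few calls. None was called among 40 cell cycle genes (median -0.44), 69 oxidative phosphorylation genes (-0.29), 29 cholesterol genes (0.57) and 38 genes of the unfolded protein response and secretion (0.35). Of 81 ribosomal protein genes, 45 had groups that did not overlap with CpG-C lower, against 11.2% of all genes. The median of the ribosomal genes was -0.73. Rnaset2a, a lysosomal ribonuclease, fell by 1.74 (adjusted p = 0.0141), a call lost without CpG-C replicate 1, control replicate 1 or control replicate 2 (adjusted p up to 0.0711). Acaa2, of fatty acid oxidation, had at most 1.18 FPKM with CpG-C and 16.68 to 45.94 FPKM in control (-4.50, adjusted p = 0.0384), a call lost whichever library was left out (adjusted p up to 0.126).

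Set against CpG-A at the same dose and time, CpG-C gave no called gene of 11641 (0%), while 467 genes (4.01%) had an unadjusted p below 0.05 in limma. The smallest adjusted p was 0.63. The 95% intervals reached a median of 1.79 to either side on the log2 scale, so the comparison does not show that the classes act alike. Groups did not overlap for 7.09% of genes, 4.1% with CpG-C higher and 2.99% with CpG-C lower. Il12b had 135.03, 69.42 and 151.71 FPKM with CpG-C, against 0, 0.18 and 52.57 FPKM with CpG-A (4.83, 95% interval 2.40 to 7.26, adjusted p = 0.726). Without CpG-A replicate 3, the highest of its group, Il12b and Gzmb were called higher with CpG-C (adjusted p = 0.00247 and 0.00272). Gzmb had 395.06, 75.19 and 139.85 FPKM with CpG-C, against 0.04, 2.13 and 375.59 FPKM with CpG-A. Without CpG-C replicate 2, Ifitm2 was the single call (adjusted p = 0.0447).

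Of 9 chemokine genes, 5 had a difference above 0 between these classes, none was called and none had groups that did not overlap, with a median of 0.82. The 95% intervals ran from 1.01 to 3.72 for Ccl4, 0.87 to 4.26 for Ccl3, -1.12 to 4.88 for Xcl1 and -2.50 to 0.36 for Cxcl10, with adjusted p = 1 for each. Ccl5 had 6241.48, 160.16 and 1019.88 FPKM with CpG-C, against 7538.34, 1238.38 and 1333.11 FPKM with CpG-A, and was not called (adjusted p = 1). The alpha interferon gene Ifna4 had 1.65, 0 and 0 FPKM with CpG-C, against 14.87, 4.46 and 56.67 FPKM with CpG-A (-3.63, 95% interval -5.72 to -1.53, adjusted p = 1). The 12 interferon genes had a median difference of -2.76, CpG-C minus CpG-A, against 0.03 for all genes, with none called. Groups did not overlap for 3 of them, all lower with CpG-C, against 2.99% of all genes. A gene could enter the test through the CpG-A libraries alone, which favours a median below 0, so no conclusion is drawn from it. The whole list summed to 3593, 277 and 1322 FPKM with CpG-C, against 9814, 54.4 and 899 FPKM with CpG-A. For Ifnb1 the interval ran from -1.78 to 5.83, and for Ifit3 from -0.87 to 1.15.

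Set against CpG-B, also at the same dose and time, 66 genes were higher with CpG-C (0.567% of those tested) and 91 lower (0.782%), 1.35% in all. With upper quartile scaling the split was 52 higher and 112 lower, but it turned to 65 higher and 55 lower when genes needed 5 FPKM and to 67 higher and 48 lower without the libraries numbered 1. Without CpG-C replicate 1 it was 74 higher and 73 lower. The 157 calls became 37 without CpG-C replicate 2, 72 without CpG-C replicate 3 and 78 without CpG-B replicate 1, and 33 were made in all 6 fits without a library. Each class comparison was adjusted over its own genes, with no further adjustment over the 2 comparisons. Of 44 identity genes of the lineage, 13 were higher with CpG-C, against 0.567% of all genes, and none was lower. Their median was 2.04 against 0.05 for all genes. Their groups did not overlap for 24, all higher with CpG-C, against 9.18% of all genes. The list was chosen with earlier results of these data known, so these counts describe it and are no independent test.

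Siglech had 1040.75, 2402.46 and 1922.4 FPKM with CpG-C, against 103.82, 253 and 230.11 FPKM with CpG-B (3.20, SE 0.411, adjusted p = 0.00216). The groups did not overlap, and the call held whichever library was left out. Irf8, a transcription factor of the lineage, had 343, 672.27 and 712.77 FPKM with CpG-C, against 29.11, 69.64 and 195.6 FPKM with CpG-B (2.88, SE 0.547, adjusted p = 0.0159). Spib, another such factor, had 267.86, 1191.03 and 638.41 FPKM with CpG-C, against 72.02, 55.8 and 154.07 FPKM with CpG-B (2.77, SE 0.561, adjusted p = 0.0227). The Irf8 and Spib calls were both lost without CpG-C replicate 2, CpG-C replicate 3, CpG-B replicate 1 or CpG-B replicate 2 (adjusted p up to 0.0947 and 0.133), and these 2 genes were chosen here after their values were seen. Tcf4 differed by 2.23 and missed the threshold (95% interval 0.96 to 3.51, adjusted p = 0.093).

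By the rule for named genes, the largest differences with CpG-C higher were those of Clec10a, Tsc22d1, Ldhb, Havcr1 and Rgs10. Clec10a, a lectin receptor, had 18.43, 146.58 and 148.23 FPKM with CpG-C, against 0.27, 0.2 and 0 FPKM with CpG-B (6.03, SE 1.29, adjusted p = 0.0322), and its call was lost without CpG-C replicate 2, CpG-C replicate 3 or any CpG-B library (adjusted p up to 0.168). Tsc22d1, a leucine zipper protein, had 31.57, 249.12 and 180.54 FPKM with CpG-C, against 0.39, 0.38 and 7.08 FPKM with CpG-B (5.51, SE 0.817, adjusted p = 0.00367). Ldhb, a lactate dehydrogenase subunit, had 122.84, 45.9 and 46.94 FPKM with CpG-C, against 0.27, 0.16 and 2.59 FPKM with CpG-B (5.23, SE 0.67, adjusted p = 0.00216). In each of these genes the lowest CpG-C library was far above the highest CpG-B library. Havcr1 differed by 5.08 (adjusted p = 0.00367) and Rgs10 by 4.79 (adjusted p = 0.00811), the last call being lost without CpG-C replicate 2 (adjusted p = 0.0576).

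Several of the genes with the largest differences in the other direction were near 0 with CpG-C, but Serpinb6b, also called lower, had 56.9, 73.86 and 109.74 FPKM there. Hamp, which encodes the iron hormone hepcidin, had 0.63, 0.75 and 0 FPKM with CpG-C, against 3514.26, 910.58 and 339.01 FPKM with CpG-B (-9.50, SE 0.87, adjusted p = 0.000203). Il1rn had 6.03, 0.19 and 0.24 FPKM with CpG-C, against 994.13, 604.55 and 469.27 FPKM with CpG-B (-8.23, SE 0.851, adjusted p = 0.000248). Il10 was listed at 0 in the 3 CpG-C libraries and had 122.88, 36.83 and 19.79 FPKM with CpG-B (adjusted p = 0.0024). The groups were far apart for all 3 genes.

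Ifitm1, an interferon-induced membrane protein, had 0.15, 0.08 and 0.49 FPKM with CpG-C, against 395.16, 719.17 and 1032.91 FPKM with CpG-B (-9.08, SE 1.2, adjusted p = 0.0024). Tnip3, an NF-kB inhibitor, differed by -8.26 (adjusted p = 0.000204) and Emilin2, an extracellular matrix protein, by -6.89 (adjusted p = 0.000248). Il6 had 198.55, 0.32 and 11.17 FPKM with CpG-C, against 780.36, 509.36 and 215.76 FPKM with CpG-B, and missed the threshold (-4.91, 95% interval -7.54 to -2.27, adjusted p = 0.0711). None of the 56 interferon-stimulated genes was called between these classes, with a median of 0.32. Of 18 cytokine genes, 4 were lower with CpG-C, against 0.782% of all genes, and none higher, with a median of -0.63. The groups did not overlap for 6 of these cytokine genes with CpG-C lower, against 9.2% of all genes. Il10, among the 4, had at most 0.03 FPKM in any library outside CpG-B. It entered the test through the CpG-B libraries alone and could only be lower with CpG-C. No conclusion is therefore drawn from these cytokine counts or their median. The 2 class comparisons share the CpG-C libraries with the comparison against control.

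**Figure D5:**
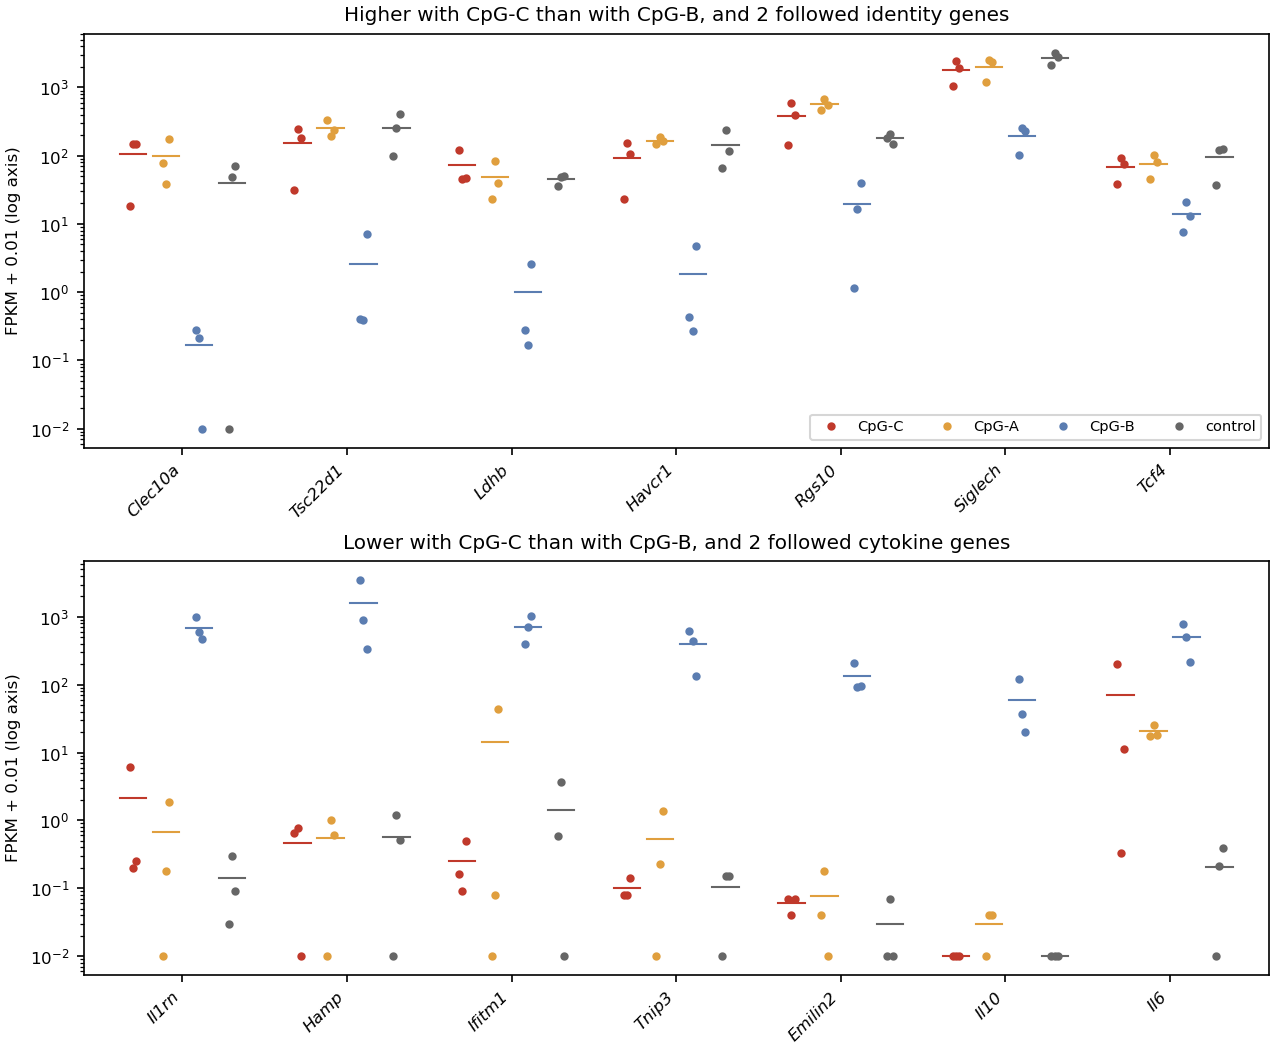
Dots are the 3 libraries of each group in the order CpG-C, CpG-A, CpG-B and control for each gene, on a log axis of FPKM + 0.01, and bars are group means. The upper genes were low in the 3 CpG-B libraries, with Siglech at 103.82 to 253 FPKM there, and the lower genes other than Il6 were at most 6.03 FPKM in the 3 CpG-C libraries.

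The deposited table also holds the authors' own q-values for CpG-C against control. In the authors' deposited table, 10966 of 11585 genes tested here with a q-value (94.7%) were below 0.05, and 5300 of these had a log2 ratio of at least 1 in size. All 217 genes called here were among the 10966, with the same sign. For 8886 of the 10966 genes (81.0%) the 3 CpG-C and 3 control FPKM values overlapped. Among all 11641 genes tested, 17.9% had groups that did not overlap, so the 81.0% is close to the share among all genes.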

How the data were processed

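RNA of 12 libraries was compared from a single gene table. Its FPKM values, 1 column per library, are as deposited, and RSEM 1.2.8, Bowtie2 2.2.5, HISAT, StringTie, GATK and mm10 are listed in the submitters' processing notes without order or role. The authors' log2 ratios, p-values and q-values for pairs of groups are in the same deposited table. Per the file headers it also gives transcript length, used only to estimate depth. Of 21574 lines, 1 was broken and left out, and 24 symbols that had become dates were restored from their gene numbers (Marchf1 among them).

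FPKM + 1 was put on a log2 scale, and limma 3.58.1, run in R 4.3.3, fitted a mean for each group to all 12 libraries together, with a mean-variance trend. Genes were called at a Benjamini-Hochberg adjusted p below 0.05. Differences of genes near 0 depend on the added 1. An exact permutation test of 3 against 3 cannot go below 0.1, so none was used. Depth was estimated from the steps of low FPKM values of short genes, of which 45.5% to 90.4% lay within 0.1 of a whole fragment at the fitted depth and 12.1% to 29.6% with lengths shuffled. The fit made the first share as large as possible and was not repeated for shuffled lengths, so the gap is partly built in. Each fit used 30 to 318 values. The estimate is rough, and no counting interval was computed. Data for CpG-C against control were simulated over 11641 genes with normally distributed noise. Changes were put only into genes whose mean log2(FPKM + 1) was above 3. Of genes changed by 1, 2, 4 and 6 on the log2 scale, 0.4%, 22.4%, 69.2% and 89.2% were called, and 0.042% of unchanged ones. Recovery among genes below that level was not simulated.

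Named genes are the 10 largest called rises and 10 largest called falls without overlap whose higher group averaged at least 5 FPKM (5 each way between classes), leaving out predicted and clone names, up to 4 called members of a list, and a followed set that includes Ifna2, Ifna4, Irf7, Il6, Il10, Il12a, Ccl5, Siglech and Tlr9. Members and lists were chosen with earlier results of these data known. Alternatives were another added value, other filters, 2 scalings, library weights, fewer libraries and a replicate block. Some single genes are not reported here.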

Additional observations from a re-analysis of the deposited data

How the results depend on the processing

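Against control, the 217 calls (156 higher, 61 lower) became 118 (88 and 30) with no filter, 406 (253 and 153) with library weights, 78 (64 and 14) with only the 6 libraries compared and 105 (88 and 17) without the 4 libraries numbered 1. Lower calls became 37 with 0.1 added in place of 1 and 40 under either scaling. Leaving out 1 library gave 106 to 195 calls, 88 to 157 higher and 18 to 54 lower. Against CpG-B, the 157 calls (66 higher, 91 lower) became 92 (34 and 58) with no filter, 587 (257 and 330) with weights and 22 (6 and 16) with only the 6 libraries. The excess of lower calls there turned to 67 higher and 48 lower without the libraries numbered 1 and to 65 higher and 55 lower when genes needed 5 FPKM, and leaving out 1 library gave 37 to 147 calls, 13 to 74 higher and 24 to 73 lower. Against CpG-A, leaving out 1 library gave 0 to 2 calls, all higher. Of genes on the lists 70 were called against control, which became 38 with no filter, 113 with weights, 31 with only the 6 libraries, 37 without those numbered 1, and 42 to 59 without 1 library. The cause of these changes was not tested, except that fewer libraries leave fewer degrees of freedom. No single gene named changed the sign of its called difference under the alternatives run.

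The replicate numbers were not taken to pair the samples. Same-numbered CpG-C and control libraries had correlated deviations of 0.153, 0.135 and 0.0816, although 12 of 12 libraries correlated best with one of their own number. With the number as a replicate block there were 310 calls against control (208 higher, 102 lower) and 276 against CpG-B (138 each way). FPKM values carry no counts, so genes near 0 cannot be given a counting error, and most 2-fold changes would be missed at this spread.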

Other observations

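Outside the rule for named genes, and chosen after their values were seen, further members of families with known interferon inducibility were called higher with CpG-C, while others of the same families were not. Phf11d, a PHD finger gene of unclear function, had 814.71, 215.24 and 480.1 FPKM with CpG-C, against 0.37, 4.06 and 12.37 FPKM in control (6.60, SE 0.692, adjusted p = 6.82e-05 in limma). Phf11a rose by 5.37 (adjusted p = 0.000213) and Phf11b by 3.67 (adjusted p = 8.35e-05). Of the PYHIN family, to which the DNA sensor AIM2 belongs, Ifi202b had 553.34, 284.05 and 508.93 FPKM with CpG-C, against 26.66, 2.37 and 4.44 FPKM in control (5.76, adjusted p = 7.29e-05), and Pydc4 rose by 5.65 (adjusted p = 0.000212). Mndal (1.08, adjusted p = 0.311) and Pydc3 (3.59, adjusted p = 0.062) of that family were not called. Both families hold close copies that may share reads. The guanylate-binding protein genes Gbp4 and Gbp6 rose by 3.46 (adjusted p = 0.00205) and 2.91 (adjusted p = 0.00256), while Gbp2 (2.83, adjusted p = 0.147) was not called. The calls named here held whichever of the 6 libraries was left out.

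Genes with no list also stood far apart. Lilr4b, a leukocyte immunoglobulin-like receptor, had 149.73, 141.36 and 143.65 FPKM with CpG-C, against 0.1, 0.18 and 0.15 FPKM in control (95% interval of the log2 difference 5.68 to 8.31, adjusted p = 2.29e-05). Hsd11b1, which regenerates active glucocorticoid in tissues, had 168.78, 162.88 and 260.72 FPKM with CpG-C, against 0.39, 2.53 and 6.53 FPKM in control (5.86, SE 0.61, adjusted p = 6.82e-05). Kdr, a receptor for vascular endothelial growth factor, had 68.72, 86.78 and 94.89 FPKM with CpG-C, against 0.32, 0.44 and 2.67 FPKM in control (5.45, SE 0.749, adjusted p = 0.00085). Among the 21 called genes named only by the sequencing provider, BGI_novel_G003724 on chromosome 9 (52261946 to 52284447, mm10, plus strand) had 49.38, 116.67 and 29.15 FPKM with CpG-C, against 0.43, 0.51 and 0.2 FPKM in control (5.36, adjusted p = 0.00137). It was also higher with CpG-C than with CpG-B, at 0.22, 0.49 and 0.71 FPKM there (5.27, adjusted p = 0.00367).

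CpG-C replicate 2 was the lowest of the 3 CpG-C libraries for 80 of the 156 genes called higher (51.3%), against 25.2% of the genes tested whose 3 values differed.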
